A study of Mus musculus with 8 samples.

Results

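The genes described here encode the subunits of the proteasome and the factors that assemble, activate or inhibit it. They are the 48 rows of the deposited count table whose symbol is Psm followed by a letter from a to g and a number, out of 55376 rows in all. RNA came from the dissected striatum of 4-month-old mice labelled female on a C57Bl/129S2/Sv background. In 4 mice the floxed Bcl11b tm1.1Leid allele was combined with D9-Cre, a Cre transgene driven by a regulatory element of Ppp1r1b, the DARPP-32 gene of medium spiny neurons (MSNs). These are called D9-Cre-Bcl11b tm1.1Leid or deletion mice, and the other 4 mice, homozygous for the floxed allele without Cre, are called Cre- or control mice. All 8 mice were thus floxed, and the tissue was the whole striatum, so that cells without Cre activity contributed to every library.

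The proteasome degrades proteins that carry ubiquitin chains. Its barrel-shaped core particle is built from outer rings of alpha subunits (Psma genes) and inner rings of beta subunits (Psmb genes), and only Psmb5, Psmb6 and Psmb7 among the constitutive beta subunits encode proteases. Psmb8, Psmb9 and Psmb10 encode the exchange subunits of the immunoproteasome, which take the places of PSMB5, PSMB6 and PSMB7 in that order and are known for induction by interferon gamma and for the production of peptides for antigen presentation. The regulatory particle caps the core: its base holds a ring of ATPases (Psmc genes) that unfold substrates, together with ubiquitin receptors, and its lid (most Psmd genes) holds the enzyme that removes ubiquitin. In neurons the proteasome is best known for the turnover of synaptic proteins, and in Huntington's disease for its presence in inclusions of mutant huntingtin.

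Libraries held 47059264 to 70247098 counts, and each deletion library was deeper than each control library. Bcl11b was at 477, 368, 446 and 281 CPM (counts per 1000000 of the TMM-adjusted library) in control mice 1 to 4 and at 145, 141, 151 and 145 CPM in deletion mice 1 to 4. This is a difference of −1.43 in log2 (SE 0.13; edgeR adjusted p = 7.06e-05). At an adjusted p under 0.01, which 8.78% of all genes passed, 4 of 9 MSN marker genes fell (Ppp1r1b, Drd2, Penk and Pde10a) and 0 rose by edgeR, with a summed level of 6348 to 7231 CPM in control and 5492 to 5995 CPM in deletion mice. Of the 7 microglial, 5 astrocytic, 5 oligodendrocytic and 5 endothelial markers, 0 passed the test, and of 6 cortical neuron markers 1 (Cux2) rose. The MSN marker Tac1 was at 422 ± 90.3 CPM in control and 585 ± 60.5 CPM in deletion mice (SD over n = 4 mice a group), with an adjusted p of 0.0365 from edgeR and 0.00303 from DESeq2. No marker was at 0. The libraries of control 4 and deletion 4 stood apart in the other 5 cortical markers: Slc17a7, a glutamate transporter gene of cortical neurons, was at 90.1 and 91.9 CPM there and at 7.32 to 31.9 CPM in the other 6 libraries. The test was therefore also run without both libraries, an alternative added after the data were seen. In bulk tissue, fewer cells of a type and less RNA per cell cannot be told apart, and the part of the MSN change in the results below was not tested.

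Of the 48 proteasome genes, 47 passed edgeR's filter on low counts. At an adjusted p under 0.01, 3 of these 47 rose in deletion mice (Psmb10, Psma7 and Psmd5), 0 fell and 44 did not pass. Of all 22173 genes 8.78% passed (4.87% higher and 3.91% lower), against 6.38% of the proteasome genes. At an adjusted p under 0.05 from edgeR there were 11 members, 10 of them higher, against 17.2% of all genes (3810 of 22173, of which 2014 were higher). By limma-voom, 3 members passed (8.82% of all genes), and by DESeq2 4 (13.8%). Psmb10 was the member with the largest difference, and its level in deletion mice was 2.0 times that in control mice. Fold changes of the other 45 members with a mean of at least 1 CPM lay between −0.37 and 0.30 on the log2 scale.

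**Figure D1:**
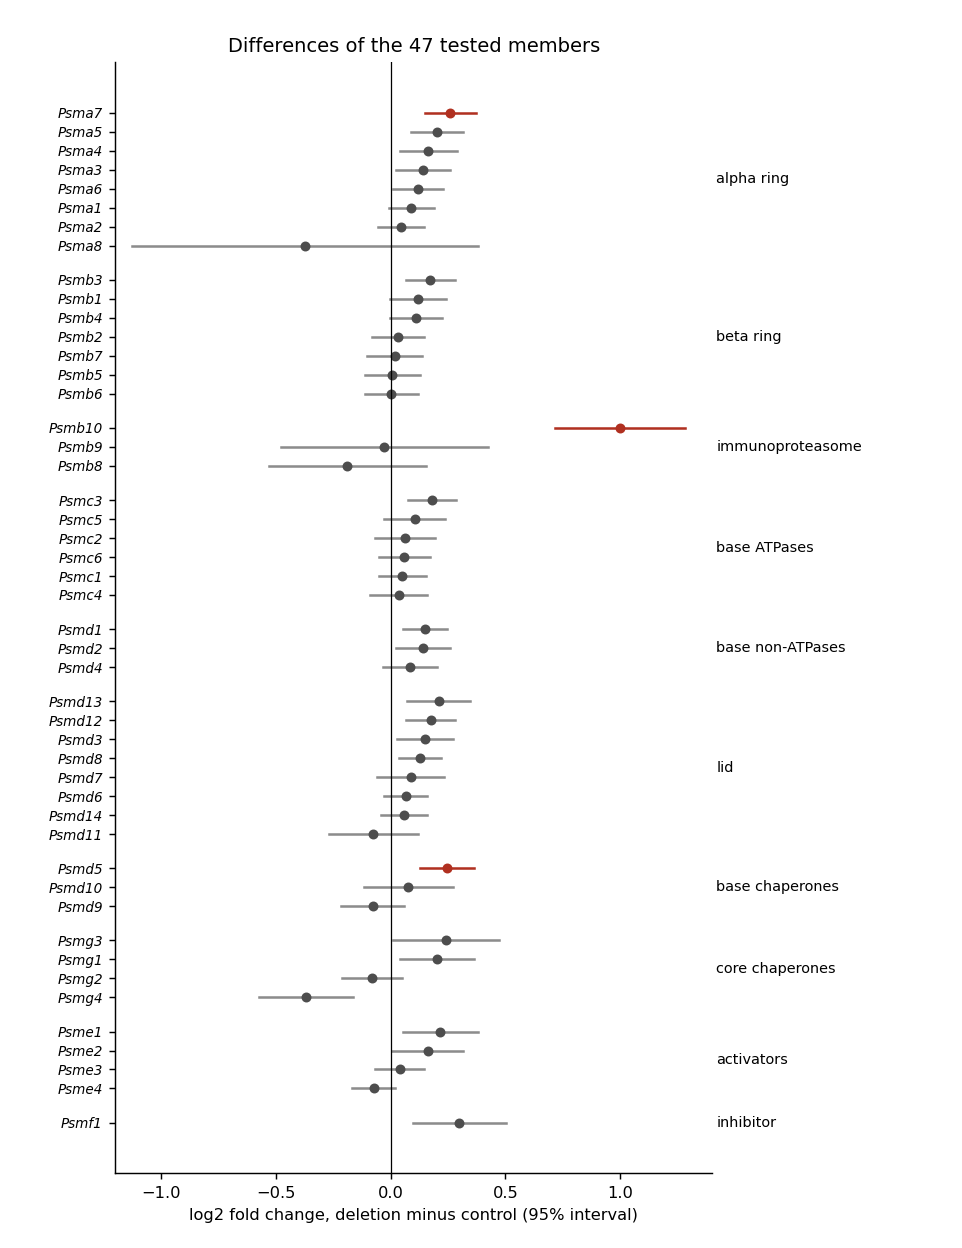
Log2 fold change (deletion minus control) of each of the 47 tested proteasome genes, grouped by role, with its 95% interval from edgeR. Red marks the 3 genes past the threshold. Psmb10 stands apart at 0.999, and 39 of the 47 points lie above 0.

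Of the 6 tested catalytic subunit genes, Psmb10 alone passed the test. It encodes the immunoproteasome subunit beta2i, the exchange partner of PSMB7. Its level was 17.6, 16.4, 14.3 and 23.5 CPM in control mice 1 to 4 and 35.7, 33.9, 35.1 and 38.8 CPM in deletion mice 1 to 4. Each deletion mouse was thus above each control mouse. Control 4, the highest control mouse, is one of the libraries that stood apart in cortical markers, and without control 4 and deletion 4 the log2 fold change was 1.12 (edgeR adjusted p = 1.76e-04). The log2 fold change of Psmb10 was 0.999 (95% interval 0.72 to 1.28, edgeR adjusted p = 5.06e-04), and the exact two-sided permutation test over mice gave p = 0.0286, the smallest that 4 against 4 allow. Any gene whose groups do not overlap reaches that permutation p, and the groups did not overlap for 22% of all genes. Leaving out any mouse left the adjusted p from edgeR between 3.58e-05 and 0.00241. Between 717 and 2488 reads per library were counted for this gene.

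Psmb8 encodes beta5i, the exchange partner of PSMB5. It was at 5.39, 4.23, 3.56 and 3.92 CPM in control mice and at 4.02, 3.86, 3.77 and 3.33 CPM in deletion mice, with overlapping groups. Its log2 fold change was −0.19 (95% interval −0.53 to 0.15, edgeR adjusted p = 0.474). Psmb9 encodes beta1i, the exchange partner of PSMB6, and was the lower of this pair. It was at 3.06, 2.55, 2.33 and 2.05 CPM in control mice and at 3.22, 1.94, 2.62 and 2.0 CPM in deletion mice. The log2 fold change of Psmb9 was −0.03 (95% interval −0.48 to 0.42, edgeR adjusted p = 0.947). The intervals of Psmb8 and Psmb9 did not reach that of Psmb10, and the difference between these genes was not itself tested. Psmb11, the thymus-specific catalytic subunit, had 0 to 6 counts per library and was the member not tested.

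The constitutive proteases showed no difference that these mice could resolve, and their intervals were narrow. Psmb5, which encodes the chymotrypsin-like subunit, was at 65.2 ± 2.87 CPM in control and 65.5 ± 3.51 CPM in deletion mice (SD over n = 4 mice a group), with a 95% interval of the log2 fold change of −0.11 to 0.13. Psmb6, for the caspase-like subunit, was at 117 ± 6.85 and 117 ± 3.87 CPM (SD over n = 4 mice a group), with an interval of −0.11 to 0.12. Psmb7, for the trypsin-like subunit that PSMB10 replaces, was at 77.9 ± 4.98 and 78.8 ± 2.51 CPM (SD over n = 4 mice a group), with an interval of −0.10 to 0.14.

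**Figure D2:**
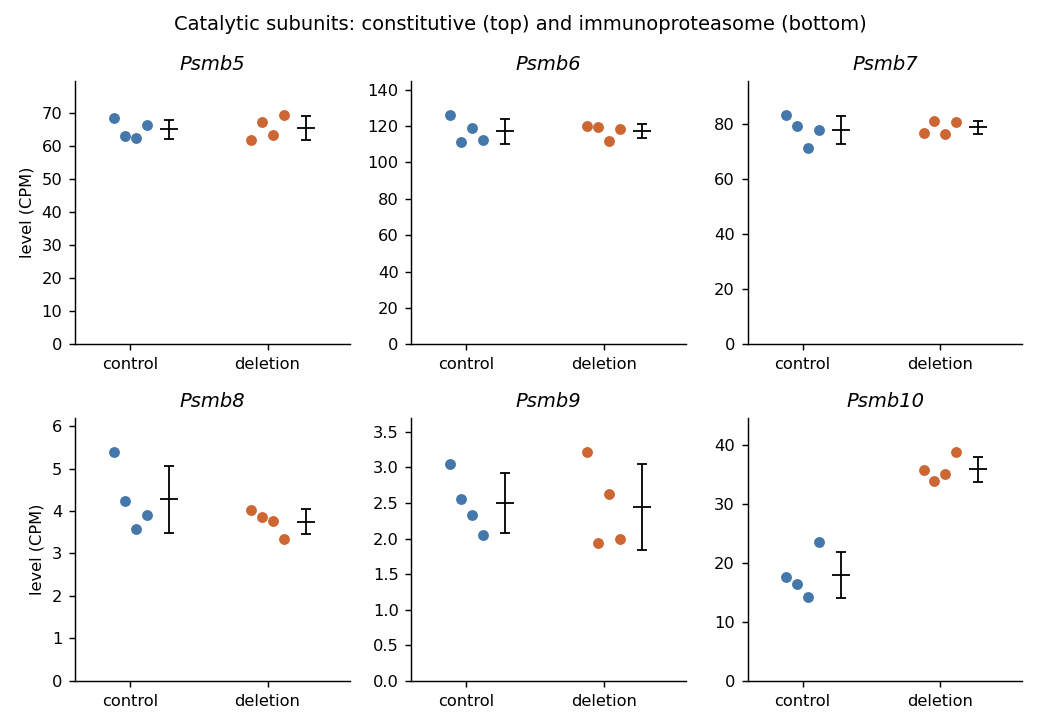
Level in CPM of the 3 constitutive catalytic subunits (top) and the 3 immunoproteasome subunits (bottom) in each control and deletion mouse. Points are mice, and bars are the mean with the SD over 4 mice. Only in the Psmb10 panel are the groups apart, at 14.3 to 23.5 CPM against 33.9 to 38.8 CPM.

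Levels divided by exon length allow subunits to be set side by side. On this scale Psmb8, Psmb9 and Psmb10 together made up 7.07%, 7.04%, 6.14% and 9.0% of the 6 catalytic subunit genes in control mice 1 to 4. In deletion mice 1 to 4 the share was 12.9%, 11.7%, 12.8% and 12.9%. Against its partner Psmb7, Psmb10 made up 31.4% ± 4.23 of the pair in control and 47.7% ± 1.46 in deletion mice (SD over n = 4 mice a group). Psmb8 made up 1.71% ± 0.251 of its pair with Psmb5 in control and 1.5% ± 0.183 in deletion mice, and Psmb9 1.08% ± 0.140 and 1.06% ± 0.259 of its pair with Psmb6 (SD over n = 4 mice a group). These shares describe transcripts, and exon lengths are those of all annotated isoforms together. The share of Psmb10 in its pair depends on these lengths, 1705 bases for Psmb10 and 3421 for Psmb7. Without division by length, mean levels in control and deletion mice were 17.9 and 35.9 CPM for Psmb10 and 77.9 and 78.8 CPM for Psmb7.

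The promoters of the immunoproteasome genes are shown because Psmb10 passed the test and its fellow exchange subunits Psmb8 and Psmb9 did not pass it. Each line gives the 250 bases before the annotated start, from RefSeq on GRCm38.p6. Capitals mark a match to any of 4 motifs, each searched on both strands: the interferon-responsive GAS (TTCNNNGAA) and ISRE core (GAAA, any 2 bases, GAAA), the antioxidant response element core bound by NFE2L1 and NFE2L2 (TGACNNNGC), and the CCAAT box (CCAAT).
Psmb10 (chr8:105938393-105938642, minus strand): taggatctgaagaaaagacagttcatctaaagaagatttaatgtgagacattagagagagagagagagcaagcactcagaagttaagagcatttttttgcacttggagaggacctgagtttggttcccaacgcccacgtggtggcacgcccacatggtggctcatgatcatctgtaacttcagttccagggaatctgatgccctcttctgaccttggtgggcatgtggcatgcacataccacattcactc
Psmb8 (chr17:34197945-34198194, plus strand): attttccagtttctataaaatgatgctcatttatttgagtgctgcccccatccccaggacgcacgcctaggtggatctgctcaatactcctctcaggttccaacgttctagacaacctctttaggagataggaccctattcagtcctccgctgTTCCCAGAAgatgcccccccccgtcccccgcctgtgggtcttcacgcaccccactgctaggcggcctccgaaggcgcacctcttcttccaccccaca
Psmb9 (chr17:34187331-34187580, minus strand): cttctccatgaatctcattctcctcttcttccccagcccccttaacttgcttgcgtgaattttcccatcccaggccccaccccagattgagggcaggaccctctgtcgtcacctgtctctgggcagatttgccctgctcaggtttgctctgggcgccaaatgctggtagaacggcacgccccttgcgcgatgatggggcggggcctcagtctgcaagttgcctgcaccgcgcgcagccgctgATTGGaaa
The Psmb10 window held 0 matches and was 46.8% G and C, against 55.6% in Psmb8 and 59.6% in Psmb9. The capitals in Psmb8 are a GAS match that begins 97 bases before the start, and those in Psmb9 are a CCAAT box in the reverse orientation 8 bases before it. Across the 40 members with a RefSeq promoter (of 48), 2 held a GAS, 3 an ISRE core, 5 the antioxidant element and 14 a CCAAT box. In all 32851 promoter windows the shares were 7.02%, 2.98%, 10.2% and 33.9%, against 5.0%, 7.5%, 12.5% and 35.0% of the members. The 2 measures differ slightly. The shares over all promoters count windows, while a member counts once for a match in any of its windows (43 windows for 40 members). A match is only a run of letters in this window, and GENCODE places the start of each of these genes elsewhere. Its model of Psmb10 begins inside the window shown, and its models of Psmb8 and Psmb9 begin upstream of their windows, which therefore lie within the GENCODE genes.

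Psmb10 lies on chromosome 8 of GRCm38 from 105935735 to 105938444, between Ctrl and Lcat, and its exons overlap those of no other annotated gene. The 4 tested genes within 20 kb (Pskh1, Ctrl, Lcat and Slc12a4) had log2 fold changes of 0.11 to 0.83, and 0 of them passed. Ctrl, a chymotrypsin-like protease gene just downstream, was at 0.407 ± 0.131 CPM in control and 0.725 ± 0.139 CPM in deletion mice (SD over n = 4 mice a group; edgeR adjusted p = 0.0775). Lcat, an enzyme gene of cholesterol esterification just upstream, was at 5.61 ± 0.941 and 6.97 ± 0.877 CPM (SD over n = 4 mice a group; edgeR adjusted p = 0.197).

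Among the alpha subunits, which form the outer rings and the gate of the core, Psma7 rose. It was at 118, 104, 104 and 108 CPM in control mice 1 to 4 and at 131, 130, 127 and 131 CPM in deletion mice 1 to 4, with no overlap. The log2 fold change was 0.26 (SE 0.05, edgeR adjusted p = 0.0054). The other constitutive alpha subunits, Psma1 to Psma6, had log2 fold changes of 0.05 to 0.20, and 0 of these 6 passed. Psma5 came closest, at 67.4 ± 3.75 CPM in control and 77.5 ± 2.07 CPM in deletion mice (SD over n = 4 mice a group; edgeR adjusted p = 0.0202). Psma8, the testis-specific alpha subunit, had 12 to 40 counts per library, and its interval of −1.13 to 0.38 leaves a wide range.

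Psmd5, which encodes a chaperone that holds ATPase subunits during assembly of the base, rose as well. It was at 64.7, 62.4, 58.9 and 67.8 CPM in control mice and at 77.3, 73.0, 74.6 and 76.1 CPM in deletion mice. Again each deletion mouse exceeded each control mouse, with a log2 fold change of 0.25 (SE 0.05, edgeR adjusted p = 0.00888). The calls of Psma7 and Psmd5 depended on the full set of mice. Psma7 missed the threshold without any of control 2, control 3, control 4 or the 4 deletion mice (highest adjusted p 0.0215 from edgeR, without control 3). Psmd5 missed it without any of control 1, control 2, control 3 or the 4 deletion mice (highest 0.0311, without deletion 1). Without both control 4 and deletion 4, the edgeR adjusted p was 0.0295 for Psma7 and 0.0143 for Psmd5, so that Psmb10 alone of the 47 members passed. The other base chaperones, Psmd9 and Psmd10, had log2 fold changes of −0.08 and 0.08 and did not pass.

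The promoters of these other members that passed are given in the same form, with the same motifs in capitals.
Psma7 (chr2:180042465-180042714, minus strand): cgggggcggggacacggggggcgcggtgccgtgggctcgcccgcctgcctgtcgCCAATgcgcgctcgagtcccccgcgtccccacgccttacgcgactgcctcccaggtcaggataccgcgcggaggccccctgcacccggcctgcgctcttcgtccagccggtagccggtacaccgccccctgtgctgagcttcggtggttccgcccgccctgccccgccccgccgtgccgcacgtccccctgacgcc
Psmd5 (chr2:34870963-34871212, minus strand): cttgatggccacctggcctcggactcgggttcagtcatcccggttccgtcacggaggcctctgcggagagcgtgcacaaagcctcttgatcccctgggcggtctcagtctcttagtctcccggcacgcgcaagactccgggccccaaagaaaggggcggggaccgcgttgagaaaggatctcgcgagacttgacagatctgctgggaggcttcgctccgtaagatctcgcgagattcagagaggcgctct
Both lie on chromosome 2. The Psma7 window, 77.2% G and C, held a CCAAT box 196 bases before the start, and the Psmd5 window, 62.0% G and C, held 0 matches. The GENCODE model of Psmd5 begins upstream of its window, which lies within the GENCODE gene.

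The core is itself built with dedicated chaperones, encoded by Psmg1 to Psmg4, and these went in different directions without passing the test. Psmg4 was at 15.1, 11.7, 13.3 and 13.4 CPM in control mice 1 to 4 and at 10.6, 10.5, 9.74 and 10.6 CPM in deletion mice 1 to 4. All deletion mice were below all control mice, and the log2 fold change was −0.37 (SE 0.09). Its adjusted p was 0.0186 from edgeR and 0.00216 from DESeq2, so that DESeq2 added it to the 3 members above. Psmg2, whose product pairs with PSMG1, was at 22.3 ± 0.958 and 21.0 ± 0.512 CPM (SD over n = 4 mice a group; edgeR adjusted p = 0.406). Psmg1 and Psmg3 were higher in each deletion mouse than in each control mouse, with log2 fold changes of 0.20 and 0.24 (edgeR adjusted p of 0.0841 and 0.150).

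Psmf1 encodes the inhibitor PI31, which binds the core. It was at 21.8, 18.6, 24.8 and 23.7 CPM in control mice 1 to 4 and at 27.3, 29.1, 24.9 and 28.1 CPM in deletion mice 1 to 4. The groups were apart only by the small gap between control 3 and deletion 3, and the log2 fold change of 0.30 (SE 0.09) had an adjusted p of 0.0454 from edgeR. Of the activators, Psme1 and Psme2, which form the interferon-inducible cap, had log2 fold changes of 0.22 and 0.16 (edgeR adjusted p of 0.0710 and 0.155). Psme3, for the nuclear cap, was at 0.04, and Psme4, for the single-chain activator PA200, at −0.07 in log2 (edgeR adjusted p of 0.661 and 0.277).

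**Figure D3:**
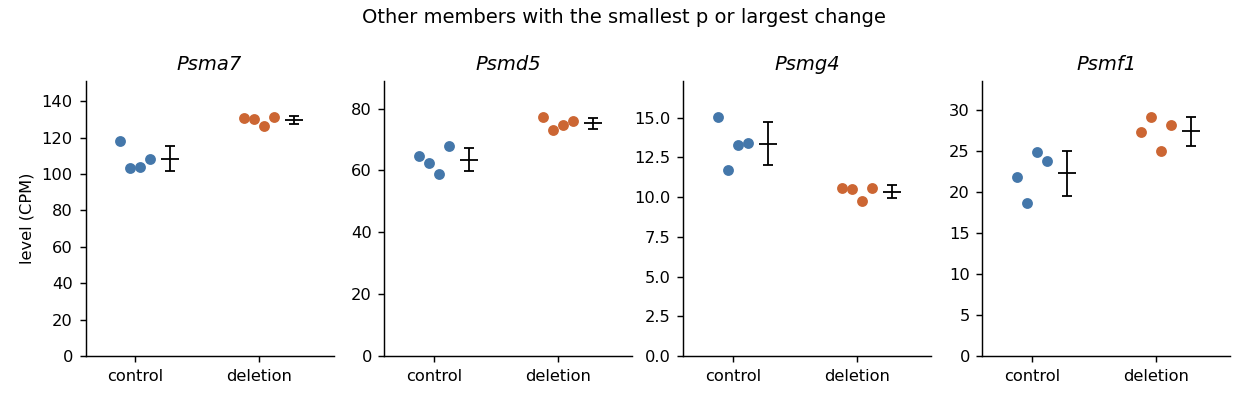
Level in CPM of Psma7, Psmd5, Psmg4 and Psmf1 in each control and deletion mouse. Points are mice, and bars are the mean with the SD over 4 mice. Psma7 and Psmd5 are higher and Psmg4 is lower in every deletion mouse, and for Psmf1 control 3 (24.8 CPM) and deletion 3 (24.9 CPM) nearly meet.

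The regulatory particle gave 0 calls among its 6 ATPase, 3 further base and 8 lid genes, where 8.78% of all genes passed. Log2 fold changes in the particle ran from −0.08 (Psmd11) to 0.21 (Psmd13). Psmc3, an ATPase gene, was at 154 ± 7.80 CPM in control and 174 ± 3.93 CPM in deletion mice (SD over n = 4 mice a group; edgeR adjusted p = 0.0232). It was 1 of 4 genes of the particle with an adjusted p under 0.05, beside Psmd1, Psmd12 and Psmd13. Of all genes, 17.2% reached that level. Psmd14, the deubiquitinating enzyme of the lid, had a log2 fold change of 0.06 (edgeR adjusted p = 0.453).

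The 31 constitutive subunits (Psma1 to Psma7, Psmb1 to Psmb7, the 6 ATPases, the 3 further base genes and the 8 lid genes) had small differences that mostly pointed one way. Of these, 30 had a fold change above 0, with a median of 0.10 on the log2 scale, while 49.4% of all tested genes were above 0 and their median was −0.00373. Among all 47 tested members, 20 were higher and 1 lower at an unadjusted p under 0.05, against 29.6% of all genes in either direction (15.1% higher and 14.5% lower). The groups did not overlap for 16 members that were higher and 2 that were lower (Psme4 and Psmg4), against 22% of all genes in either direction (11.7% higher and 10.3% lower). Summed over the 48 members, the level was 3593, 3349, 3379 and 3539 CPM in control mice 1 to 4 and 3708, 3765, 3700 and 3805 CPM in deletion mice 1 to 4. The ratio of the group means was 1.08, and it was also 1.08 without Psmb10. After per-library trends on GC content and exon length were removed, an alternative added after the data were seen, the median of the 31 subunits was 0.07 and 27 were above 0. Without control 4 and deletion 4 it was 0.12 and 28 were above 0. Over all 19 alternatives this median was 0.07 to 0.12. Members share each library's normalization, so these counts are a description and carry no test.

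By role, the ratio of the summed level in deletion mice to that in control mice was 1.1 for the alpha ring, 1.06 for the beta ring, 1.07 for the ATPases, 1.1 for the further base genes and 1.08 for the lid. The groups of mice overlapped for the beta ring and the ATPases. The core chaperones gave 0.982 and the activators 1.02. The 4 immunoproteasome and thymoproteasome genes gave 1.70, from 20.2 to 29.6 CPM in control and 39.8 to 44.2 CPM in deletion mice. Most of this sum was Psmb10, with means of 17.9 of 24.8 CPM in control and 35.9 of 42.1 CPM in deletion mice. Psmb8 and Psmb9 had log2 fold changes of −0.19 and −0.03, so this ratio does not describe a rise shared by the group.

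Levels per length varied widely between subunits that occur in equal number in the particle. Among the 31 constitutive subunits, control means ran from 4.12 CPM per kb for Psmd11 to 94.7 CPM per kb for Psmb4, a beta subunit without protease activity, with a median of 34.7. Psmb5 (72.5), Psmc1 (71.5) and Psmc5 (68.2) came next in this order, and their group means lay close together. Range and order depend on exon lengths of all annotated isoforms together. Without division by length, control means of these subunits ran from 26.3 CPM for Psmd11 to 244 CPM for Psmd2, with Psmb4 at 185 CPM. Psmb10 stood at 10.5 CPM per kb in control and 21.0 CPM per kb in deletion mice, which moved it from rank 35 to rank 27 of the 48 members. Mice of a group differed little: coefficients of variation of the 31 subunits were 2.45% to 9.14% in control and 0.787% to 9.89% in deletion mice. Psmb10 varied more among control mice, at 21.9%.

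**Figure D4:**
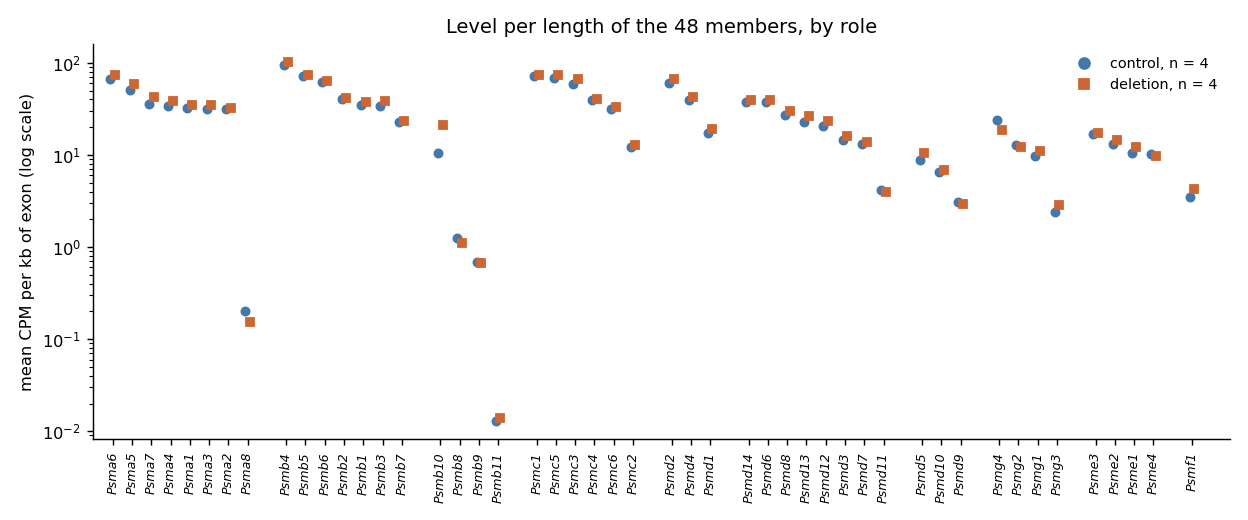
Mean level of each of the 48 members per kb of exon in control (circles) and deletion (squares) mice, on a log scale, by role. Psmb10 is at 10.5 CPM per kb in control and 21.0 CPM per kb in deletion mice, and the plotted means run from under 0.1 (Psmb11) to 102 CPM per kb (Psmb4, deletion).

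Genes outside the family that supply or serve the proteasome were read from lists. Of 11 further proteasome parts and cofactors, 1 rose and 0 fell, where 8.78% of all genes passed in either direction, and the median log2 fold change was 0.08 against −0.00373 over all genes. A single call in a list of this size is near that share. Uchl5, a deubiquitinating enzyme of the regulatory particle, went from 17.9 ± 1.24 to 25.1 ± 0.834 CPM (SD over n = 4 mice a group; log2 fold change 0.49, edgeR adjusted p = 7.59e-04). Adrm1, the ubiquitin receptor that anchors UCHL5, had a log2 fold change of 0.01. Pomp, the maturation factor of the core, was at 0.08 (edgeR adjusted p = 0.475).

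Of 6 genes of ubiquitin supply and activation (median −0.02 in log2), 1 rose and 1 fell, where 8.78% of all genes passed. Uba6, a ubiquitin-activating enzyme, fell by 0.25 in log2 (edgeR adjusted p = 0.00896). Of the fits with 1 mouse left out, Uba6 passed only in that without control 2, and the highest edgeR adjusted p was 0.0380, without control 3. Without both control 4 and deletion 4 it was 0.0487.

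Of 9 shuttle and extraction factors, with a median of 0.05 in log2, 1 fell and 0 rose, again near the 8.78% of all genes. Ubqln4, a ubiquilin that carries ubiquitinated proteins to the proteasome, went from 94.3 ± 14.3 to 60.6 ± 3.80 CPM (SD over n = 4 mice a group; log2 fold change −0.64, edgeR adjusted p = 0.0014). Of 6 transcription factors that bind antioxidant response elements or pair with those that do, 0 passed by edgeR, with a median of −0.01 in log2. At an unadjusted p under 0.05 from edgeR, 2 were higher and 0 lower, against 29.6% of all genes (15.1% higher and 14.5% lower). Nfe2l1, the factor known to induce proteasome genes when proteasome activity falls, was at 0.04 in log2 (edgeR adjusted p = 0.706).

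Of 8 antigen processing and interferon genes that work with the immunoproteasome, with a median of 0.09 in log2, 2 rose and 0 fell, where 4.87% of all genes rose. Irf1, an interferon-induced transcription factor, went from 4.99 ± 1.06 to 9.81 ± 0.202 CPM (SD over n = 4 mice a group), a log2 fold change of 0.97 (SE 0.15, edgeR adjusted p = 0.00131). Erap1, the aminopeptidase that trims peptides in the endoplasmic reticulum, rose by 0.62 in log2 (edgeR adjusted p = 0.0012). Tap1, the peptide transporter gene next to Psmb9, had a log2 fold change of 0.09, Tap2 of 0.09 and B2m of −0.12, and these 3 did not pass. Summed levels of the 8 genes overlapped, at 121 to 144 CPM in control and 126 to 146 CPM in deletion mice. The 7 microglial markers, listed because microglia express immunoproteasome genes, summed to 340 to 390 CPM in control and 339 to 366 CPM in deletion mice.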

How the data were processed

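Reads from 1 library per mouse were trimmed with Trim Galore 0.6.4, aligned with STAR 2.7.2b and counted per gene with featureCounts on GRCm38.p6, according to the submitters' processing notes. The authors deposited raw counts, which were used here, and a transformed log table, which was not used. No source used here gives how featureCounts treated strand and multimapping reads. Exons of 13 of the 48 members overlap another gene (0.342% to 25.5% of their length), and reads there cannot be told apart. None of the members called by edgeR is among them. The catalytic genes Psmb5 (12.1%), Psmb7 (11.8%), Psmb8 (14.7%) and Psmb9 (5.79%) are, so the catalytic shares and pair percentages carry this limit. The pseudogene rows Psmb5-ps, Psmb6-ps, Psmb6-ps2 and Psmb7-ps2 held 0 to 2 counts per library.

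Counts were tested with edgeR 4.0.16 in R 4.3.3: filterByExpr (minimum count 10, minimum total 15), TMM normalization and the quasi-likelihood test with group alone. Adjusted p-values are Benjamini-Hochberg values over 22173 genes, read at the threshold of 0.01 that the study's methods give. CPM are counts per 1000000 of the TMM-adjusted library. Single genes were also compared by exact permutation over 70 assignments. No library was a copy of another: within a group, chi-square over its degrees of freedom was 13.1 to 64.5 for each pair of libraries. That each library is a separate mouse rests on its label.

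Exon lengths are from GENCODE M21 and promoters from RefSeq. Alternatives were DESeq2 1.42.0, limma-voom (limma 3.58.1), other scalings and filters, robust dispersion, thinning to the smallest library (seed 1), the mouse number as a block, each mouse left out, removal of GC content and length trends (span 0.3), and omission of both control 4 and deletion 4, the last pair added after the data were seen. Members, lists and rules were chosen with earlier results of these data known. The genes given in full are the members called by edgeR or DESeq2, the 3 highest and 3 lowest fold changes among members with a mean of at least 1 CPM, Psmb5 to Psmb10 and up to 3 called genes of each related list; Psma5, Psmc3 and further members and genes named with their values were picked after their values were seen. Some genes of the related lists are not reported here.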

Additional observations from a re-analysis of the deposited data

Results flagged for a closer look

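In 40 groups of 4 mice checked for a mouse far from the rest, 3 stood out, where chance gives about 1 in 20. Psmg4 was at 9.74 CPM in deletion 3, against 10.5 to 10.6 CPM in the other deletion mice. Psmb6 was at 112 CPM in deletion 3, against 119 to 120 CPM in the others. The immunoproteasome share of the catalytic subunits was 11.7% in deletion 2, against 12.8% to 12.9% in the other deletion mice.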

How the results depend on the processing

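Psmb10 kept its direction and its call in all 19 alternatives, with log2 fold changes of 0.89 to 1.16. The number of members called was 3, and 1 with the mouse number as a replicate block (Psmb10); with a mouse left out it was 1 to 2, and without both control 4 and deletion 4 it was 1 (Psmb10). Over all genes, 3208 were called by DESeq2 in place of 1947, 1165 with the replicate block, and 1102 to 2066 with a mouse left out. DESeq2 called 13.8% of the genes it adjusted, and 4 members. Under the block the adjusted p from edgeR was 0.0133 for Psma7, 0.0183 for Psmd5, 0.0267 for Uba6 and 0.0108 for Erap1. Mouse numbers did not pair the mice: correlations of same-numbered deviations were −0.234 to 0.0623. With GC content and length trends removed, Psma7 (adjusted p = 0.0217) and Uba6 (0.179, both from edgeR) missed the threshold, and with no filter on low counts Uba6 did (0.0147). The cause of these changes was not tested. Without division by length, the immunoproteasome share was 8.66% in control and 13.9% in deletion mice. With division by length the mean share was 7.31% in control and 12.6% in deletion mice. With a mouse left out, this per-length mean was 6.75% to 7.70% in control and 12.5% to 12.9% in deletion mice. The median of the immunoproteasome genes was −0.03, and with a mouse left out it ran from −0.19 (without deletion 1) to 0.08 (without control 1), so its sign is not fixed. Psmb8, Psmb9 and Psma8 had the fewest counts of the tested members and the widest intervals. Whether depth set these widths was not tested.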
